A study of Mus musculus with 6 samples.

Results

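The MEF2 transcription factors and the class IIa histone deacetylases were followed as 8 genes, Mef2a, Mef2b, Mef2c, Mef2d, Hdac4, Hdac5, Hdac7 and Hdac9, chosen by name as the complete families of both kinds of protein. All 8 were among the 23231 genes with a count in any library, and all 8 were among the 14378 that passed the filter on low counts and were tested. The libraries came from C2C12 cells, a clonal line of mouse myoblasts, transduced with lentivirus, selected with puromycin, and kept in 2% horse serum until RNA was taken on day 5. Both groups carried dCas9-KRAB, a catalytically dead Cas9 fused to a repressor domain, and held 3 libraries each. The dCas9-KRAB group had no guide to an enhancer, and the dCas9-KRAB-En5 group also had 2 guides against Myog-En5, an enhancer upstream of the myogenin gene. Because no label says that the replicates were separate cultures, the p-values below measure the spread between these libraries, which may be technical. Each library is polyadenylated RNA of a whole culture, so that fewer cells of one type and less RNA per cell cannot be told apart.

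MEF2 proteins are MADS-box factors that bind A/T-rich elements and, together with the myogenic bHLH factors, switch on the genes of the contractile apparatus as myoblasts become myotubes. Class IIa deacetylases bind MEF2 through their N-terminal part, bring corepressors to it, and keep its targets silent. When calcium-dependent kinases phosphorylate them, 14-3-3 proteins dock on the deacetylases and carry them out of the nucleus, which frees MEF2. Hdac9 is itself known as a gene that MEF2 switches on in muscle, which closes a feedback loop. On GRCm38 the genes lie apart from each other, Mef2a at chr7:67231163-67372858 (minus strand), Mef2b at chr8:70139711-70167488 (plus strand), Mef2c at chr13:83504034-83667080 (plus strand), Mef2d at chr3:88142372-88172086 (plus strand), Hdac4 at chr1:91928779-92195699 (minus strand), Hdac5 at chr11:102194432-102230166 (minus strand), Hdac7 at chr15:97792664-97844502 (minus strand) and Hdac9 at chr12:34047580-34917095 (minus strand), each on a chromosome of its own among the 8.

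The enhancer was targeted at 2 sites on mouse chromosome 1 (GRCm38), both before the start of Myog, which lies at chr1:134289989-134292548 on the plus strand. The target sequences in the study's guide table are shown because they define the perturbation, with the PAM, the motif that Cas9 needs beside its target, in capitals. Guide 1 lies on the plus strand at chr1:134283252-134283274, 6715 bases before that start, and guide 2 on the minus strand at chr1:134283558-134283580, 6409 bases before it.
Myog-En5-sgRNA1: gaaggggttactgtcggcagAGG
Myog-En5-sgRNA2: gaccggaagattgaaccactGGG

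Myog, the gene whose enhancer was targeted, had 43211, 68488 and 74845 counts in dCas9-KRAB replicates 1, 2 and 3, and 12, 0 and 0 counts in dCas9-KRAB-En5 replicates 1, 2 and 3, so the libraries follow their labels for this gene. Total counts were 40554323 to 73988425 in dCas9-KRAB and 31831093 to 40384720 in dCas9-KRAB-En5. One library stood apart. dCas9-KRAB-En5 replicate 3 listed 13991 genes, against 17084 to 19395 in the others, and 25.8% of its counts fell on ribosomal protein genes, against 10.8 to 19.4%. The markers of the labelled cell type were not present in all libraries. Of 7 myoblast markers, 5 reached 10 TPM (a count corrected for the length of the gene and for the library total) in every dCas9-KRAB library, but 0, 0 and 2 did in dCas9-KRAB-En5 replicates 1, 2 and 3. The summed TPM of the list was 586 to 2139 and 14.5 to 43.3, and Myod1, which defines the lineage, was at 33.8, 111 and 79.2 TPM against 0.0761, 0.0317 and 0. Of 9 myotube markers, 7 reached 10 TPM in each dCas9-KRAB library and 0 in each dCas9-KRAB-En5 library, with sums of 15480 to 17550 and 6.26 to 15.1 TPM. Of 18 macrophage markers, 10 reached 10 TPM in every library of both groups, with sums of 3939 to 4766 and 5625 to 8625 TPM. Among the defining macrophage genes, Csf1r stood at 132 to 443 TPM in dCas9-KRAB and 186 to 668 in dCas9-KRAB-En5, and Mrc1 was at 0 throughout. Adgre1 stood at 7.62 to 17.7 and 29.6 to 135 TPM (edgeR adjusted p of 0.00706 in the test described below). Adgre1, Cd68 and Fcgr3 were higher in dCas9-KRAB-En5 without overlap in TPM, against 7.76% of all tested genes. Aif1 and C1qc, both low, were lower without overlap, against 19.7%, and the other markers of this list overlapped. No gene of the endothelial, lymphocyte or neuron lists reached 10 TPM in any library, and of 8 mesenchymal markers 2 to 4 did in dCas9-KRAB and 0 to 2 in dCas9-KRAB-En5, with sums of 70.3 to 206 and 20.9 to 39.2 TPM. The part of these differences in the results below was not tested.

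Mef2d and Hdac5 were the main members of their families in every library. Levels of different genes were compared on the TPM scale, which divides by the summed exons of each gene. That length was 1404 bases for Mef2b and 14665 to 15813 for Mef2a, Mef2c, Hdac4 and Hdac9. The order below, and the shares within each family given later, depend on it. The mean order in dCas9-KRAB was Mef2d at 32.3 ± 19.9 (SD, n = 3), Hdac5 at 26.0 ± 12.8, Mef2b at 4.71 ± 1.88, Hdac7 at 4.69 ± 2.66, Mef2c at 1.48 ± 0.43, Mef2a at 1.16 ± 0.655, Hdac4 at 0.467 ± 0.213 and Hdac9 at 0.221 ± 0.148. The ranges of Mef2d and Hdac5 overlapped, as did those of Mef2b and Hdac7, and those of each neighbouring pair from Mef2c down to Hdac9. Hdac5 stood clear of Mef2b, and Hdac7 of Mef2c. In dCas9-KRAB-En5 the order was Mef2d at 76.5 ± 37.7 TPM, Hdac5 at 45.5 ± 13.9, Mef2b at 8.74 ± 3.32, Mef2c at 6.21 ± 4.63, Mef2a at 3.01 ± 2.15, Hdac4 at 2.96 ± 1.94, Hdac7 at 2.60 ± 0.678 and Hdac9 at 1.48 ± 0.917. There the only neighbours whose ranges did not overlap were Hdac5 and Mef2b. Hdac7 was at rank 4 of the 8 in dCas9-KRAB and at rank 7 in dCas9-KRAB-En5, behind Mef2c, Mef2a and Hdac4, whose ranges there overlapped with its own.

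**Figure D1:**
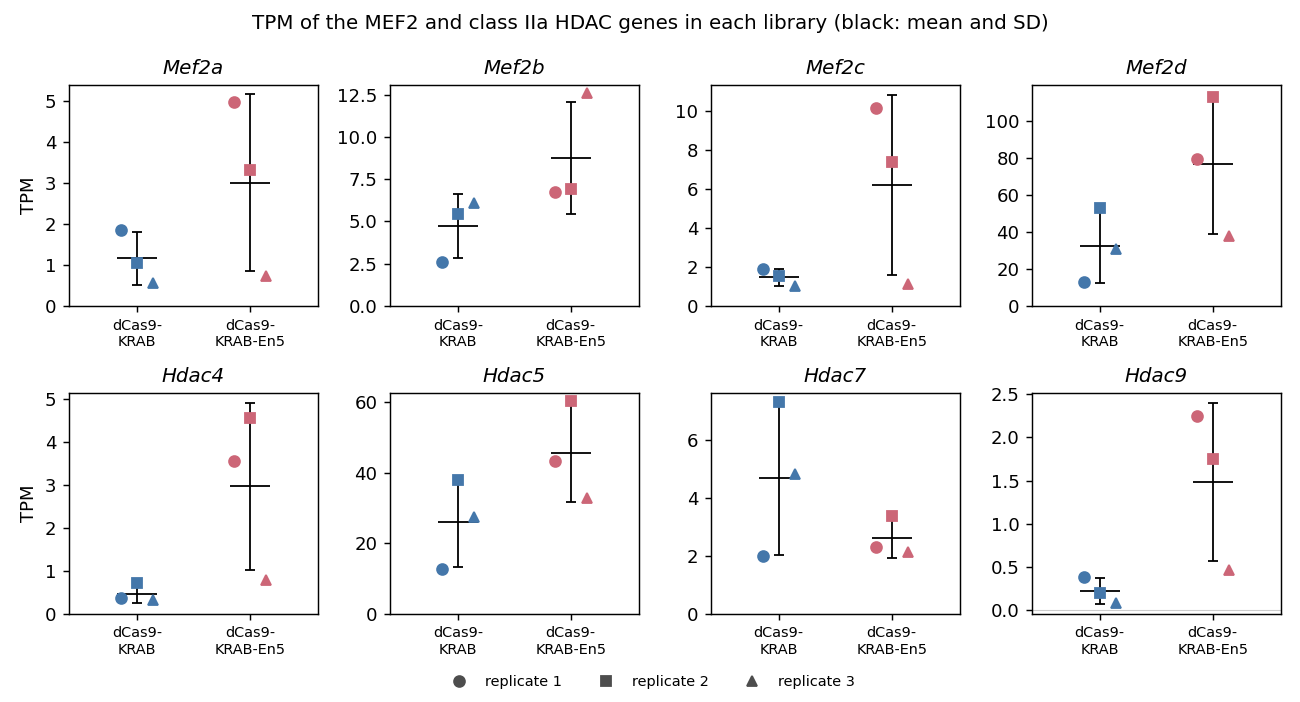
TPM (vertical axis, from 0, its own scale in each panel) of each of the 8 genes in the 3 dCas9-KRAB (blue) and 3 dCas9-KRAB-En5 (red) libraries, with the mean and SD in black and the replicate number as the symbol. Mef2b, Hdac4 and Hdac9 have every dCas9-KRAB-En5 library above every dCas9-KRAB library in TPM (in TMM-scaled CPM Mef2b overlaps and Mef2d does not). For every gene other than Mef2b, replicate 3 is the lowest of the dCas9-KRAB-En5 libraries in TPM.

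None of the 8 genes passed both cutoffs (adjusted p of at most 0.01 and absolute log2 fold change of at least 1) in edgeR's quasi-likelihood test with condition alone, in which 6.19% of all tested genes passed, 4.67% lower and 1.52% higher in dCas9-KRAB-En5. At an unadjusted p under 0.05 there were 3, Hdac4, Hdac9 and Mef2c, all higher, against 16.6% of all tested genes higher and 16.3% lower at that p. DESeq2 called 2 of the 8, Hdac4 and Hdac9, both higher, against 5.88% of the genes it tested. The replicate numbers were taken as pairs, which no label states. With the number as a block edgeR called the same 2, against 3.94% of genes higher. At an adjusted p of 0.05 and the same fold, edgeR without the block also called those 2, against 7.43%. Without dCas9-KRAB-En5 replicate 3 the test called 3, adding Mef2c, against 11.7%. With limma-trend on log2(TPM + 1) or log2(TPM + 0.1) it was 0. Scaled by total counts alone, the split over all genes was 516 lower and 70 higher, against 671 and 219 with TMM. The estimates of 7 of the 8 were above 0, against 52.3% of all tested genes, and only Hdac7 was below. The median log2 fold change of the MEF2 genes was 1.04 and that of the class IIa deacetylases 1.50, beside 0.08 over all genes tested.

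Among the MEF2 genes, Mef2c, the member best known for its role in heart and skeletal muscle development, had the largest estimate. Its TPM was 1.88, 1.53 and 1.03 in dCas9-KRAB replicates 1, 2 and 3, and 10.2, 7.37 and 1.11 in dCas9-KRAB-En5. The groups overlapped, since dCas9-KRAB-En5 replicate 3 lay among the dCas9-KRAB libraries while the other 2 were far above them. The log2 fold change was 1.66 ± 0.549 (SE), with an edgeR adjusted p of 0.0586, 0.0290 with the replicate block. Without dCas9-KRAB-En5 replicate 3 it was 1.96 with an edgeR adjusted p of 0.00334.

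Mef2d, the most abundant member, stood at 13.2, 52.9 and 31.0 TPM in dCas9-KRAB and at 79.2, 113 and 37.5 TPM in dCas9-KRAB-En5. Replicates 1 and 2 of dCas9-KRAB-En5 exceeded all dCas9-KRAB libraries, and replicate 3 fell between the dCas9-KRAB values. That order belongs to TPM. On the TMM-scaled CPM behind the fold change, Mef2d was at 51.3, 173 and 122 against 216, 265 and 221, and the groups did not overlap. Its log2 fold change was 1.02 ± 0.513, with an edgeR adjusted p of 0.191. Mef2a, a ubiquitous member of the family, stood at 1.86, 1.05 and 0.567 TPM and at 4.98, 3.33 and 0.720 TPM, with overlap again through replicate 3. Its log2 fold change was 0.99 ± 0.578 and its edgeR adjusted p 0.256. Mef2b, the shortest and most divergent member, stood at 2.57, 5.46 and 6.11 TPM and at 6.72, 6.93 and 12.6 TPM. In TPM every dCas9-KRAB-En5 library was above every dCas9-KRAB library, and replicate 3 was the highest. In TMM-scaled CPM Mef2b was at 2.39, 4.24 and 5.66 against 4.33, 3.86 and 17.4, so that the groups overlapped and only replicate 3 stood above. The log2 fold change was 1.06 ± 0.671 with an edgeR adjusted p of 0.297, and without dCas9-KRAB-En5 replicate 3 the estimate turned to -0.09. Mef2b rested on 98 to 404 counts a library, the fewest of the MEF2 genes. It shares 62 exonic bases with Borcs8, a gene on the same strand with 2077 to 3568 counts in dCas9-KRAB and 840 to 897 in dCas9-KRAB-En5, so part of its reads cannot be assigned with certainty.

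Hdac4 and Hdac9 had the largest estimates of the class IIa deacetylases. Hdac4, a repressor of MEF2 that kinases drive in and out of the nucleus of muscle cells, stood at 0.373, 0.711 and 0.318 TPM in dCas9-KRAB replicates 1, 2 and 3, and at 3.54, 4.55 and 0.793 TPM in dCas9-KRAB-En5. In TPM all dCas9-KRAB-En5 values were above all dCas9-KRAB values, replicate 3 only narrowly. In TMM-scaled CPM Hdac4 was at 3.88, 6.20 and 3.34 against 25.5, 28.3 and 12.4, where replicate 3 stood clear of dCas9-KRAB. The counts of Hdac4 were 160, 421 and 225, and 1187, 1219 and 287. Within the replicate numbers the TPM ratio was 9.50, 6.39 and 2.50. The log2 fold change was 2.31 ± 0.516, with an edgeR adjusted p of 0.0115, and 2.28 ± 0.458 with an adjusted p of 0.00280 with the block. DESeq2 gave an adjusted p of 0.00036. Of its exonic bases 3536 are shared with Gm26720, a non-coding gene on the opposite strand that was at 0 counts in every library.

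Hdac9, whose short form lacks the catalytic part and still represses MEF2, stood at 0.378, 0.202 and 0.0843 TPM in dCas9-KRAB and at 2.24, 1.74 and 0.465 TPM in dCas9-KRAB-En5. Again the groups did not overlap, and replicate 3 was the lowest within each group. The counts were 152, 112 and 56, and 705, 439 and 158, and the TPM ratios within the replicate numbers were 5.94, 8.65 and 5.52. The log2 fold change was 2.40 ± 0.648, with an edgeR adjusted p of 0.0266, and 2.57 ± 0.517 with an adjusted p of 0.00282 with the block. DESeq2 gave an adjusted p of 0.00199. Together with Mef2b, Hdac4 and Hdac9 made 3 of the 8 genes whose TPM did not overlap between groups with the higher values in dCas9-KRAB-En5, against 7.76% of all tested genes. None of the 8 did so with the lower values there, against 19.7%. In TMM-scaled CPM the count was also 3, but of Mef2d, Hdac4 and Hdac9, against 15.4% of all tested genes, and again none was lower, against 20.2%.

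Hdac5, the most abundant of the 4, stood at 12.6, 38.03 and 27.4 TPM in dCas9-KRAB and at 43.4, 60.3 and 32.9 TPM in dCas9-KRAB-En5, with overlap in TPM through dCas9-KRAB-En5 replicate 3. In TMM-scaled CPM it was at 71.9, 183 and 158 against 173, 208 and 284, where replicate 3 was the highest library and the overlap came through replicate 1. The log2 fold change was 0.69 ± 0.493, with an edgeR adjusted p of 0.357. Hdac7, best known from endothelial cells and thymocytes, was the exception in direction. It stood at 1.97, 7.29 and 4.82 TPM in dCas9-KRAB and at 2.29, 3.38 and 2.13 TPM in dCas9-KRAB-En5. In TPM the groups overlapped only through dCas9-KRAB replicate 1, which was below all other libraries. In TMM-scaled CPM Hdac7 was at 8.72, 27.0 and 21.4 against 7.08, 9.01 and 14.25. There the overlap again came through dCas9-KRAB replicate 1, but dCas9-KRAB-En5 replicate 1 was the lowest library. Its log2 fold change was -0.92 ± 0.528, with an edgeR adjusted p of 0.252.

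**Figure D2:**
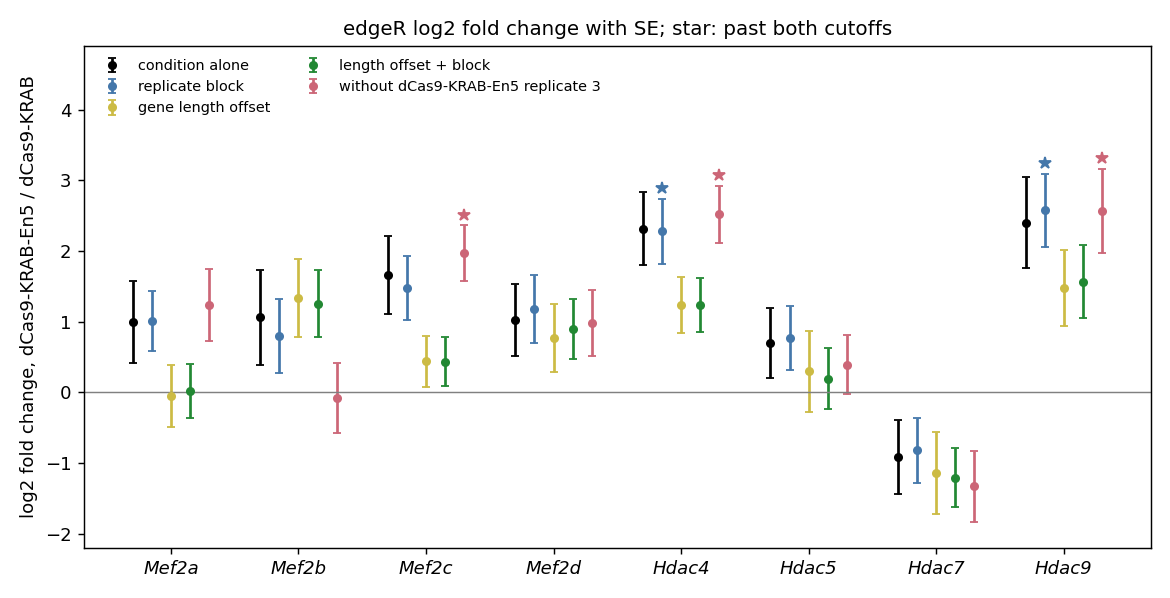
edgeR log2 fold change of dCas9-KRAB-En5 over dCas9-KRAB (vertical axis) for the 8 genes, with its SE as bars, in 5 fits named in the legend. A star marks a value past both cutoffs, which Hdac4 and Hdac9 reach with the replicate block and without dCas9-KRAB-En5 replicate 3, and Mef2c only in the latter of these fits.

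Gene length moved with these estimates. The exonic length, the sum of all annotated exons of a gene, was 15813 bases for Hdac4, 15715 for Mef2c, 14681 for Mef2a and 14665 for Hdac9, which places them at percentiles 97.6 to 98.2 of the tested genes by length. Over all tested genes, the median log2 fold change was -0.20 for the 3268 genes under 2 kb, 0.15 for the 3092 genes of 4 to 6 kb, and 1.39 for the 403 genes of 14 kb or more, of which 82.4% were above 0. Hdac4 lay 0.92 above that median, Hdac9 1.01 above it and Mef2c 0.27 above it, whereas Mef2a differed from it by -0.40. The class of 14 kb or more also split the libraries, with median deviations in log2 CPM (counts scaled to a common library total) from the gene's mean of 1.27 and 1.21 in dCas9-KRAB-En5 replicates 1 and 2 and of -0.64 in replicate 3, against -0.33 to -0.90 in dCas9-KRAB. When an offset for the length trend of each library was added after the data were examined, the log2 fold change was 1.23 for Hdac4 (edgeR adjusted p of 0.0549) and 1.47 for Hdac9 (edgeR adjusted p of 0.0886). It was 0.44 for Mef2c and -0.05 for Mef2a. With that offset and the block, the edgeR adjusted p was 0.0344 for Hdac4 and 0.0454 for Hdac9, so that neither was past the cutoff. The shorter members moved less, with 0.77 for Mef2d at 5985 bases, 1.34 for Mef2b at 1404 bases, 0.29 for Hdac5 at 8780 bases and -1.14 for Hdac7 at 6755 bases. The cause of the length trend was not tested.

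**Figure D3:**
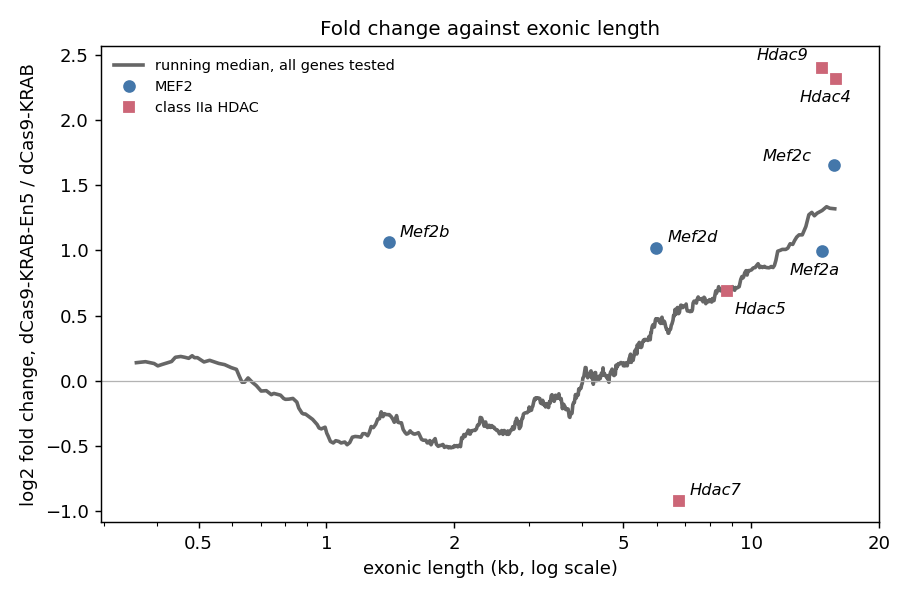
edgeR log2 fold change of dCas9-KRAB-En5 over dCas9-KRAB (vertical axis) against exonic length in kb (horizontal axis, log scale). The grey line is the running median of 500 neighbouring genes among all tested genes. Mef2a lies under the line, Mef2c a little above it, and Hdac4 and Hdac9 farther above it, with Mef2b above the line and Hdac7 below it.

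Within each family the balance between members was described by shares of its summed TPM. The MEF2 sum was 19.5, 60.9 and 38.7 TPM in dCas9-KRAB and 101, 130 and 51.9 TPM in dCas9-KRAB-En5, a log2 ratio of 1.30 with a within-group SD of 0.76. Mef2d made up 67.6 to 86.8% of it in dCas9-KRAB and 72.2 to 86.5% in dCas9-KRAB-En5. The class IIa deacetylase sum was 15.3, 46.2 and 32.6 TPM and 51.5, 70.0 and 36.3 TPM, a log2 ratio of 0.83 with a within-group SD of 0.67. Hdac5 made up 82.2 to 84.0% and 84.3 to 90.6% of it. The share of Hdac7 was 12.9, 15.8 and 14.8% in dCas9-KRAB and 4.45, 4.83 and 5.89% in dCas9-KRAB-En5, without overlap. Hdac7 was thus lower relative to its family in every dCas9-KRAB-En5 library, although its own TPM overlapped. The share of Hdac4 was 0.975 to 2.44% and 2.19 to 6.88%, which overlapped. The deacetylase sum per MEF2 sum was 0.785, 0.759 and 0.842 in dCas9-KRAB and 0.509, 0.537 and 0.699 in dCas9-KRAB-En5, also without overlap. These sums and ratios are over genes chosen by name and carry no test. How often shares or ratios of other genes lack overlap between the groups was not measured. Since Mef2d and Hdac5 make up most of the sums, the ratio of the sums mainly sets Hdac5 against Mef2d, which each overlapped in TPM.

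**Figure D4:**
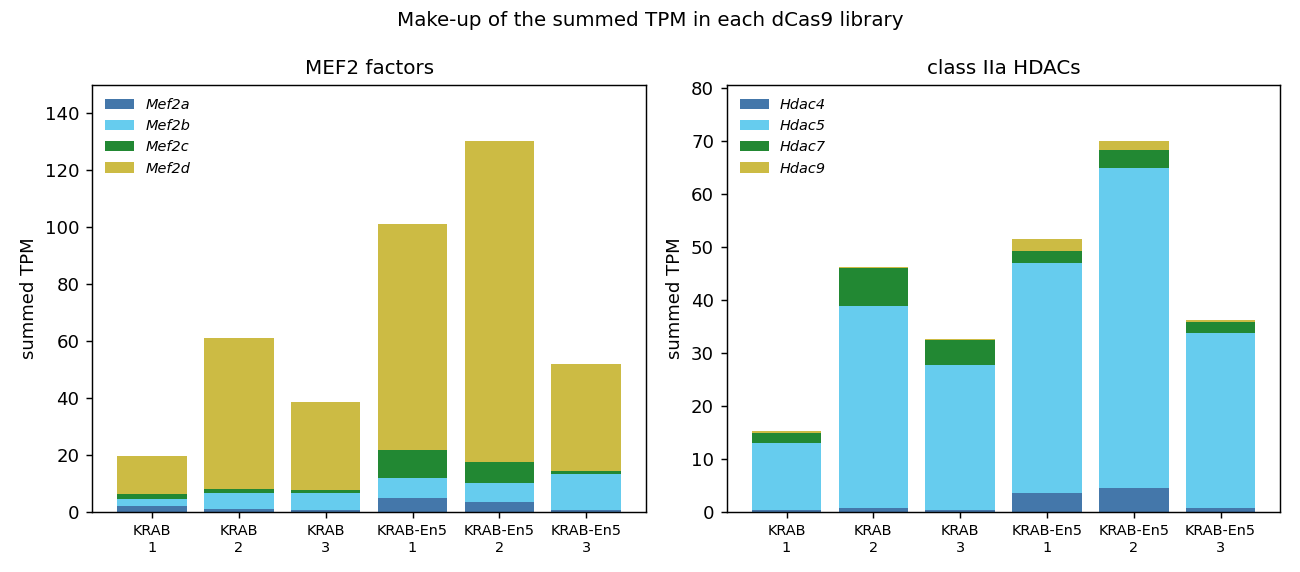
Summed TPM (vertical axis, from 0) of the MEF2 genes on the left and of the class IIa deacetylase genes on the right, stacked by gene, in each of the 6 libraries. Mef2d and Hdac5 fill most of every bar, and the Hdac7 band, 12.9 to 15.8% of the bar in dCas9-KRAB, narrows to 4.45 to 5.89% in dCas9-KRAB-En5.

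The sequences before the RefSeq starts of the deacetylase genes are shown for the pair with the largest estimates, Hdac4 and Hdac9, and for Hdac5, the only member whose window held a MEF2 element. Each is the 250 bases before the start, on the gene's strand, from RefSeq on GRCm38.p6, and all 4 are on the minus strand. In the 2 Hdac9 windows capitals mark E-boxes, the motif CANNTG that bHLH factors bind. In the Hdac5 window they mark the MEF2 element, and the 1 E-box of that window, catctg, is left in lower case. The Hdac4 window held neither. The Hdac4 window lies at chr1:92180342-92180591, inside the annotated Hdac4 gene and outside its exons. The first Hdac9 window lies at chr12:34528890-34529139, inside the Hdac9 gene and outside its exons, and the second at chr12:34917096-34917345, just before the annotated gene. The Hdac5 window lies at chr11:102230173-102230422, just before its gene.
Hdac4: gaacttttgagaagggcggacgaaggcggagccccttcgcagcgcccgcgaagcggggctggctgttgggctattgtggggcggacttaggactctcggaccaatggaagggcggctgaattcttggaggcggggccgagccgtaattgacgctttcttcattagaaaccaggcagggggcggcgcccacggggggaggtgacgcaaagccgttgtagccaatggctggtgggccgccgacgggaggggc
Hdac9, first window: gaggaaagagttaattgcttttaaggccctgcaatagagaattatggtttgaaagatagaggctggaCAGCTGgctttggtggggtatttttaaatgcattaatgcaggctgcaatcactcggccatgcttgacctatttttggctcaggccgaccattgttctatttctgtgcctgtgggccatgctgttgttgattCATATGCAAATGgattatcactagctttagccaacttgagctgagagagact
Hdac9, second window: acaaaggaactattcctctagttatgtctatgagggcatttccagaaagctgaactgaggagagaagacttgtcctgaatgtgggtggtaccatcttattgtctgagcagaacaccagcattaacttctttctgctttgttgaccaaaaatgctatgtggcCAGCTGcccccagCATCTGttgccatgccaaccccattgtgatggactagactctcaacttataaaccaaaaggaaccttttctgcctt
Hdac5: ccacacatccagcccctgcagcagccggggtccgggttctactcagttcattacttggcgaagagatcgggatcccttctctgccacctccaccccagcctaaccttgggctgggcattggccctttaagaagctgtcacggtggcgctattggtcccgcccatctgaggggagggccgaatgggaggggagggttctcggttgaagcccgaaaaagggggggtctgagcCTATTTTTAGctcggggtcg

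The 8 genes had 14 RefSeq starts. An E-box was present before 7 of the 14 starts, in 5 of the 8 genes, and the letters CANNTG, which read the same on both strands, occur in 66.2% of all 32851 windows of this length. The E-box form CAGCTG, which is one of those letters' forms and also reads the same on both strands, was present before 2 starts, both of Hdac9, against 13.0% of all windows. The MEF2 element, searched on both strands by its consensus, was present before 1 start, that of Hdac5, against 2.92%. A match describes the letters of these windows only.

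The most alike profiles were sought among the 7542 other genes that averaged 10 CPM or more, by Pearson's r of log2 CPM over the 6 libraries, which share the difference between groups and the length trend. Hdac4 was closest to Fyb, Gab2 and Dab2 (r of 0.999, 0.997 and 0.997), adaptor proteins of signalling and endocytosis, the first of them of blood cells. Hdac9 was closest to Rnf138, Cnih1 and Clk1 (0.998, 0.991 and 0.990). Hdac5 was closest to Pld3, Aldh2 and Myo1g (0.998, 0.998 and 0.997), the last a myosin of blood cells, and Hdac7 to Zfp523, Limk1 and Sugp1 (0.999, 0.998 and 0.995). Among the factors, Mef2a was closest to Cr1l, Alg10b and Scyl2 (0.992, 0.992 and 0.990), Mef2b to Trpm4, Gm9625 and Acot7 (0.994, 0.989 and 0.989), Mef2c to Mdm4, Atp7a and Mtmr2 (0.998, 0.997 and 0.997), and Mef2d to Wiz, Zfp362 and Capn15 (0.999, 0.998 and 0.998). Between members, Mef2d and Hdac5 had an r of 0.922 and Mef2a and Mef2c one of 0.929, whereas Hdac7 ran opposite to Mef2a at -0.917 and to Hdac9 at -0.833.

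The genes around the 2 families were read from lists, each beside the 4.67% of all tested genes lower and the 1.52% higher. Of 12 tested kinases that phosphorylate class IIa deacetylases, 1 fell and 1 rose, with a median log2 fold change of 0.69. Camk2b, a calcium and calmodulin-dependent kinase, fell from 0.416, 1.25 and 1.07 TPM to 0, 0.0129 and 0.0431 TPM (edgeR adjusted p of 0.00991). That call was lost with the offset for gene length and kept with the replicate block (edgeR adjusted p of 0.00056). With the offset and the block together, 2 kinases of the list passed lower and 1 higher. Sik2, a salt-inducible kinase, rose from 0.417, 0.403 and 0.405 TPM to 14.98, 16.1 and 0.522 TPM, with a log2 fold change of 4.17 ± 0.804 (edgeR adjusted p of 0.00589). In TPM the rise of Sik2 was carried by replicates 1 and 2, and replicate 3 lay close to dCas9-KRAB. DESeq2 called 2 kinases lower and 1, Sik2, higher. With limma-trend Sik2 lost its call, with a limma adjusted p of 0.105 on log2(TPM + 1) and 0.0878 on log2(TPM + 0.1), and the kinases called were 0 and 1, the latter Camk2b. Of 7 tested 14-3-3 genes and 10 corepressor genes, none passed either way with edgeR and condition alone, with medians of 0.16 and 1.00. Of 7 other deacetylases none passed in that fit, with a median of -0.60, and of 6 calcineurin genes none, with a median of 0.16. At an unadjusted p under 0.05, which 16.3% of all tested genes passed lower and 16.6% higher, edgeR had 0 of the 14-3-3 genes, 6 of the corepressors (1 lower and 5 higher), 3 of the other deacetylases (all lower) and 1 of the calcineurin genes (higher), and DESeq2 and limma called 0 in these 4 lists.

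Of 7 tested kinases that act on MEF2, 1 fell. Mapk12, the p38 kinase enriched in skeletal muscle, went from 12.9, 14.96 and 13.8 TPM to 0.782, 0.543 and 0.942 TPM (edgeR adjusted p of 0.00125). Of 9 MEF2 coactivators 2 fell, with a list median of 1.00. Smarcd3, the chromatin remodelling subunit that MyoD recruits, went from 3.93, 8.01 and 6.57 TPM to 0.203, 0.438 and 0.299 TPM (edgeR adjusted p of 0.00086). Vgll2, a muscle cofactor of TEAD and MEF2 proteins, went from 2.68, 10.8 and 6.31 TPM to 0 in each dCas9-KRAB-En5 library, at least 75.9-fold lower when 3 counts a library are taken as the floor. Of 5 tested bHLH partners 2 fell and 1 rose. Myod1, given above, and Myf5, at 4.67, 2.54 and 2.31 TPM against 0.0227, 0.0566 and 0 TPM, fell with edgeR adjusted p values of 1.822e-05 and 0.00066. Tcf4, an E protein that dimerises with them, rose from 0.840, 0.929 and 0.682 TPM to 11.4, 10.9 and 1.58 TPM (edgeR adjusted p of 0.00453), and lost its call with the offset for gene length and with limma-trend.

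Muscle genes known as MEF2 targets fell together. Of 15 tested, 13 passed lower and 0 higher, and the median log2 fold change was -6.07, which is the same value when genes without a count in dCas9-KRAB-En5 are set at the floor of 3 counts. Many of these genes are also targets of the myogenic bHLH factors, and most are specific to muscle, as are the myoblast and myotube markers above. Ckm, the muscle creatine kinase, stood at 71.8, 88.3 and 75.8 TPM against 0.113, 0.0810 and 0 TPM. Mb, myoglobin, stood at 105, 81.8 and 85.7 TPM against 0 in each dCas9-KRAB-En5 library, at least 989-fold lower by the same floor. Smyd1, a muscle methyltransferase, stood at 13.3, 9.25 and 8.01 TPM against 0.0312, 0.0130 and 0 TPM. Myl2, a myosin light chain, stood at 14.6, 30.8 and 22.1 TPM against 0.0726, 0.0605 and 0 TPM, and Cox6a2, the muscle form of a respiratory subunit, at 198, 237 and 215 TPM against 3.89, 9.45 and 3.08 TPM. The edgeR adjusted p values of these 5 genes ran from 1.822e-05 to 5.448e-05.

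Of 4 early targets of MEF2 that are not specific to muscle, none passed with limma or with edgeR and condition alone. At an unadjusted p under 0.05 edgeR had 1 lower and 2 higher, beside the 16.3% and 16.6% of all tested genes, and DESeq2 called 1 lower and 2 higher. Klf4 stood at 7.41, 11.9 and 4.84 TPM against 2.86, 2.24 and 0.745 TPM, with a log2 fold change of -2.31 ± 0.521 (edgeR adjusted p of 0.0121), and passed lower with the replicate block. Nr4a1 stood at 1.51, 2.89 and 4.12 TPM against 94.0, 19.0 and 1.28 TPM, and Jun at 9.50, 23.6 and 17.7 TPM against 120, 114 and 15.03 TPM. In TPM, both were high in dCas9-KRAB-En5 replicates 1 and 2, and replicate 3 lay within or below the dCas9-KRAB values. Klf2 stood at 16.4, 56.4 and 56.8 TPM against 35.0, 58.3 and 59.0 TPM, with overlap. Without dCas9-KRAB-En5 replicate 3, and leaving aside the muscle targets, 11 of the 67 tested genes of these lists passed both cutoffs lower and 13 higher, against 14% (2134) and 11.7% (1787) of the 15265 genes tested in that fit. Klf4 was among the lower genes, and Nr4a1 and Jun were among the higher ones.

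**Figure D5:**
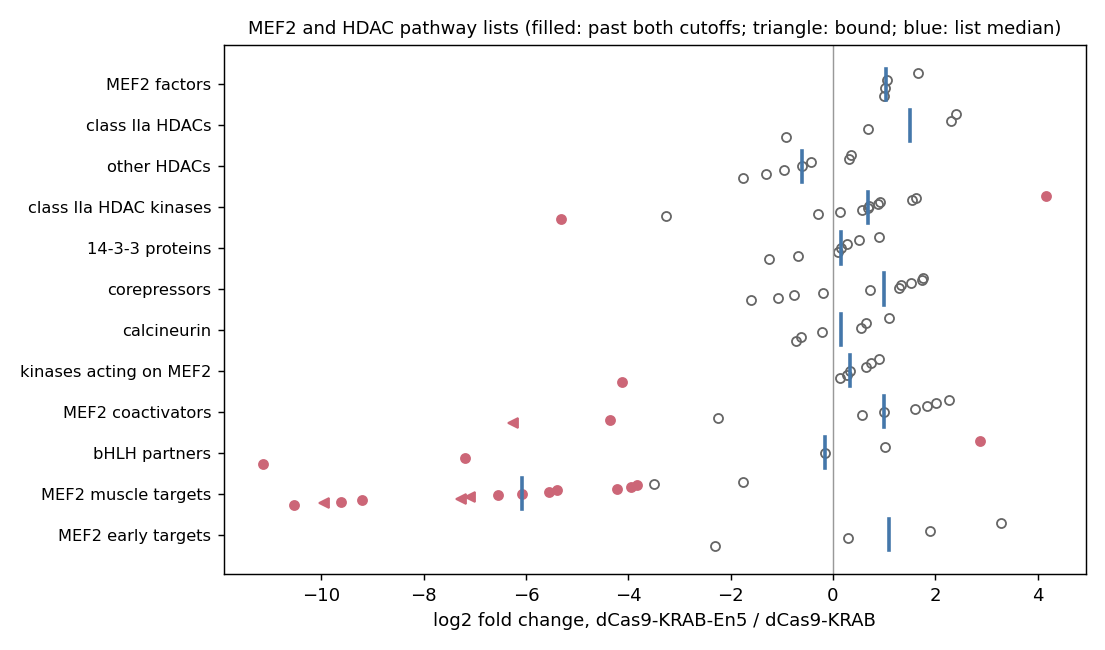
edgeR log2 fold change of dCas9-KRAB-En5 over dCas9-KRAB (horizontal axis) of each tested gene in the 2 families and 10 related lists, 1 row a list. Filled red points passed both cutoffs, open points did not, blue bars are list medians, and triangles are genes at 0 in dCas9-KRAB-En5, drawn at the bound set by 3 counts. The muscle targets lie far to the left with a median of -6.07. The medians of the 2 families lie to the right of 0, with Hdac7 alone to the left, and neither family has a filled point.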

How the data were processed

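RNA of 3 dCas9-KRAB and 3 dCas9-KRAB-En5 libraries was sequenced by the authors from both ends, aligned with HISAT2 2.2.1 to GRCm38 (mm10) and counted with featureCounts. The strand setting and annotation release are not given in the sources used here. The authors deposited a count and a TPM per gene and library, and genes absent from a file were taken as 0. The lengths implied by the deposited counts and TPM were within 1% of the summed exons of GENCODE vM21 for 98.6% of 12933 genes, with a ratio of 1.01 for Hdac9 and 1.0 for the other 7. Symbols were found for 23155 of 23231 gene IDs. The 8 genes, the lists and the tests were chosen with earlier results of these data known.

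Both dCas9 groups were compared on the deposited counts, which were fitted with edgeR 4.0.16 in R 4.3.3 (TMM factors, filterByExpr with a minimum of 10 counts and a total of 15, quasi-likelihood test with condition alone, Benjamini-Hochberg adjustment over 14378 genes). Both cutoffs were those of the study. SE is the absolute log2 fold change divided by the square root of F. DESeq2 1.42.0 and limma 3.58.1 were alternatives, beside other scalings, filters, a replicate block and leaving out each library. Deviations from the group means correlated at 0.262, 0.214 and 0.290 between libraries of the same replicate number and at -0.34 to -0.0508 between different ones, so the numbers, which come from the labels, were taken as pairs. The labels do not state a pairing, and correlations from these same data do not establish one. The offset for gene length was the lowess trend of each library's deviations on log2 exonic length. The fits were also run on simulated counts, in which libraries of a group differed only by depth and random draws. The outcome of that run is not used here. Named genes were all 8 members, Myog, up to 5 called genes of each list by smallest adjusted p, all genes of lists with at most 4 tested, and the 3 genes most correlated with each member. Depth limits low genes, 3 counts being 0.0405 to 0.0942 CPM, and this floor covers counting error only.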

Additional observations from a re-analysis of the deposited data

How the results depend on the processing

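The number of the 8 genes past both cutoffs was 0 as reported, 2 at an adjusted p of 0.05, 2 without a low-count filter, 2 with DESeq2, 2 with the replicate block, 0 to 3 when 1 library was left out, and 0 in all other settings. Hdac4 and Hdac9 were the genes called, with Mef2c beside them without dCas9-KRAB-En5 replicate 3. Over all genes the 890 calls became 2449 at an adjusted p of 0.05, 586 with total counts only, 2198 without a filter, 544 with at least 10 counts in every library, 2390 with DESeq2, 514 with limma-trend on log2(TPM + 1), 1543 with the replicate block, 1577 with the offset for gene length and the block, and 222 to 3921 when 1 library was left out. They were 222, 325 and 397 without dCas9-KRAB replicates 1, 2 and 3, and 518 and 3921 without dCas9-KRAB-En5 replicates 2 and 3. Mef2a reversed to -0.0538 with the offset for gene length and Mef2b to -0.0854 without dCas9-KRAB-En5 replicate 3 (-0.0854 to 1.4149 over the libraries left out), and the cause was not tested. The other members kept their direction in all 17 alternatives. The log2 ratio of the summed MEF2 TPM stayed between 0.86 and 1.68 when 1 library was left out. That of the summed deacetylase TPM stayed between 0.39 and 1.18, and both were lowest without dCas9-KRAB replicate 1. The block changed the call of no member other than Hdac4 and Hdac9.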
